A study of Mus musculus with 2 samples.

Results

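The genes followed here belong to dendritic cell maturation and were read in leukocytes from B16-F10 melanomas. They were Ccr7, Fscn1, Il4i1, Ccl17, Ccl22, Il12b, Cd40, Cd80, Cd86 and Socs2. They were taken from a list of symbols, and all 10 were found among the 32432 genes of the deposited matrices. Their molecule counts were summed over cells gated as conventional dendritic cells type 1 (cDC1) and type 2 (cDC2), mature dendritic cells (mature DC), plasmacytoid dendritic cells (pDC) and macrophages, in both genotypes.

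B16-F10 is a mouse melanoma line, and male mice aged 8 to 12 weeks had received 1000 of its cells, mixed with Matrigel, by intradermal injection on both legs. Mice of the group called iKO were Trex1 fl/fl R26CreERT2-ki/wt, and those of the control group were Trex1 wt/fl R26CreERT2-ki/wt. Both groups thus carried the tamoxifen-inducible Cre recombinase, expressed from the Rosa26 locus and so not restricted to one cell type, and the control carried 1 wild-type and 1 conditional Trex1 allele. Tamoxifen (1 mg daily, 3 doses starting on day 5) was given to both groups. Living CD45+ cells were sorted from the tumours on day 14. Each genotype was represented by 4 hashtagged samples, run together as 1 pool per genotype, and the effect of genotype and that of the pool cannot be told apart in any comparison. The labels do not say that each sample came from 1 mouse, so p-values measure only the spread between these samples, which may be technical.

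The 8 samples held 1362 to 6117 barcodes with median depths of 12535.5 to 14221 unique molecular identifiers (UMIs) per cell in iKO and 5794 to 11490 in control, and 22052 cells were kept. Ptprc, which encodes CD45, had a UMI in 96.4% of them. Trex1 had 2 UMIs in all kept cells, both in control sample 2, so its loss could not be checked from these counts. The gated cells numbered 429 mature DC, 542 cDC2, 226 cDC1, 150 pDC and 3100 macrophages, and within a gate the median depth differed less (13522 UMIs in control and 15223 in iKO for mature DC, 16159 and 17433 for macrophages). Over all genes, iKO samples 1 and 2 differed with a chi-square of 25.5 per degree of freedom, iKO samples 3 and 4 with one of 8.23, and iKO samples across these pairs with 102 to 231, while pairs of control samples gave 22.1 to 104. These values used the UMIs of all kept cells, so they grow with the total counts and with differences in cell make-up, and do not rank the pairs. Cells gated as T cells numbered 1408 and 2613 in iKO samples 1 and 2, and 324 and 451 in iKO samples 3 and 4.

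As background, a dendritic cell that has taken up antigen and sensed danger or inflammation matures: it stops sampling, raises costimulatory molecules and travels to the draining lymph node to meet T cells. CCR7 is the chemokine receptor that guides this migration, and fascin, the product of Fscn1, bundles actin in the long processes of the migrating cell. CD80 and CD86 engage CD28 and CTLA-4 on T cells, CD40 receives the CD40 ligand signal from them, and IL-12 p40, encoded by Il12b, is a subunit of interleukins 12 and 23. CCL17 and CCL22 attract T cells through the shared receptor CCR4, while IL4I1, an enzyme that degrades amino acids, and SOCS2, an inhibitor of cytokine signalling, are known as brakes. In tumours such cells are often described as mature dendritic cells enriched in immunoregulatory molecules.

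The gates were built from other genes, so no gene described here placed a cell in a class. Mature DC were cells with at least 4 of 12 markers (among them Cacnb3, Nudt17, H2-M2, Apol7c and Zmynd15) and at least 1 of 4 genes shared by conventional dendritic cells (Flt3, Zbtb46, Dpp4, Bcl11a). In the 429 cells of this gate, 68 lay at the limit of 4 markers and 53 further cells fell 1 marker short. The median gated mature DC held 39 UMIs of the mature DC markers, 2 of the macrophage markers, 2 of the cDC2 markers and 0 of the cDC1 markers, and 98.4% of these cells also lay in the cluster named mature DC when cells were clustered without the 10 genes. Fewer cells of 3 other gates did so: 82.3% of the cDC2 gate, 85.0% of the cDC1 gate and 58.6% of the macrophage gate lay in a cluster of the same name, and 39.6% of the macrophage gate lay in clusters left unnamed. These shares differed between genotypes: 77.0% of iKO and 87.7% of control cells of the cDC2 gate, 78.6% and 91.7% of the cDC1 gate, and 62.8% and 52.3% of the macrophage gate lay in the cluster of that name, and the part of this in the genotype comparisons was tested only by the alternatives with clusters and with cells of the same cluster class. The clusters were named with the marker lists of the gates, and these markers were not barred from the clustering. Part of the agreement is therefore built in. Class names below are those of the gates and stand for cells that resemble the type.

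The migration genes separated mature DC from every other gate. Levels are given in CPM, the UMIs of a gene in a gate and sample scaled to a common total of all UMIs there, as mean ± SD over samples. Ccr7 stood at 2135 ± 250 CPM in mature DC (n = 8), 57.4 ± 34.9 CPM in cDC2 (n = 8), 12.5 ± 20.8 CPM in cDC1 (n = 8), 4.90 ± 3.43 CPM in pDC (n = 4) and 4.0 ± 2.86 CPM in macrophages (n = 8). Mature DC were above cDC2 in 8 of 8 samples and cDC2 above cDC1 in 7 of 8, while cDC1, pDC and macrophages did not differ beyond their spread. Fscn1 was at 1887 ± 288 CPM in mature DC and between 0.920 and 6.90 CPM in the other 4 gates. With cells thinned to 5000 UMIs and those holding fewer left out, Ccr7 was detected in 96.1% and Fscn1 in 92.4% of mature DC, against 7.1% and 2.24% of cDC2. T cells also express Ccr7, so the T cell gate is no background for it, but Fscn1 was detected in 0.738% of 6097 thinned T cells, and the 0.430% of macrophages with Fscn1 did not exceed that level.

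The regulatory members were also highest in mature DC and next in cDC2. Il4i1 was at 682 ± 109 CPM in mature DC and 73.4 ± 55.4 CPM in cDC2 (n = 8 each), with mature DC higher in 8 of 8 samples, and at 2.0 to 13.8 CPM elsewhere. Socs2 was at 558 ± 94.1 CPM in mature DC, 14.5 ± 7.08 CPM in cDC2, and 4.73 to 6.93 CPM in the remaining gates. Il4i1 in the cDC2 gate came from few cells, with 95.2% of its iKO UMIs and 91.2% of its control UMIs in the 10% of cells with most of it. The same held for Ccr7 there (98.3% and 96.3%), and 15 of the 542 gated cDC2 lay in the mature DC cluster.

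The cytokine and chemokine members were more uneven. Il12b was at 393 ± 263 CPM in mature DC and at 3.57 CPM or below in each other gate. It was detected in 31.6% of thinned mature DC, with a mean of 16.9 UMIs in the unthinned cells that held any. Ccl22 was at 744 ± 293 CPM in mature DC and 15.9 ± 16.3 CPM in cDC2. Ccl17 was the exception among the 10 genes: it was at 118 ± 178 CPM in cDC2 and 112 ± 74.2 CPM in mature DC, with cDC2 higher in 3 of 8 samples, and then at 22.8 ± 20.2 CPM in cDC1 and 4.82 ± 4.14 CPM in macrophages. In cDC2 it was at 22.8 ± 28.5 CPM in iKO and 213 ± 222 CPM in control (n = 4 each). The mean of cDC2 was above that of mature DC in control and below it in iKO. The exception rested on few cells: mature DC had the highest mean of all 10 genes, Ccl17 included, once the single cell with most Ccl17 was left out of each gate, without control sample 2 or control sample 4, in thinned cells and with clusters in place of gates. Neither Ccl17 nor Il12b had a UMI in the 150 gated pDC, which allows a share of cells with a UMI, not of cells expressing the gene, of up to 2.0% (3 counts of the total). After thinning, Ccl17 was held by 15.4% of mature DC and 6.54% of cDC2, against 0.197% of T cells.

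Promoter sequences of 3 of these genes are shown to set the 3 secreted factors side by side: Ccl17 and Ccl22, which lie on the same chromosome, and Il12b. They are RefSeq windows of GRCm38.p6, not the GRCm39 build of the counts, from 250 bases before to 50 bases after the start of a transcript, all on the plus strand, at chr8:94810203-94810502 for Ccl17, chr8:94745434-94745733 for Ccl22 and chr11:44399813-44400112 for Il12b. Windows were found for 6 of the 10 genes. Searched on both strands were GGGNNNNNCC, a loose form of the site bound by NF-kappaB, TTCNNNNGAA, a loose form of the STAT6 site, and GAAANNGAAA, a core of interferon-stimulated response elements, and capitals mark the matches.
Ccl17: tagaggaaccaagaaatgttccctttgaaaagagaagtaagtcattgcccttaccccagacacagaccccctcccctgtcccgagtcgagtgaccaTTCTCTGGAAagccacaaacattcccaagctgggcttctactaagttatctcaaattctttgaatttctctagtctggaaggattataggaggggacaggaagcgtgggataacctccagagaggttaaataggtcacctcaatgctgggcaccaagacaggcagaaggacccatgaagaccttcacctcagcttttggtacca
Ccl22: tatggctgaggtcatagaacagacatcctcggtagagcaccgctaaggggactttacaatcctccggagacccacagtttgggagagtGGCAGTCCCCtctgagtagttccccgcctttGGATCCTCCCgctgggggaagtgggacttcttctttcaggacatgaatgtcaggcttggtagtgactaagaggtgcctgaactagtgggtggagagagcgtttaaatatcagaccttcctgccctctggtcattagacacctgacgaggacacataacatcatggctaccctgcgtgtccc
Il12b: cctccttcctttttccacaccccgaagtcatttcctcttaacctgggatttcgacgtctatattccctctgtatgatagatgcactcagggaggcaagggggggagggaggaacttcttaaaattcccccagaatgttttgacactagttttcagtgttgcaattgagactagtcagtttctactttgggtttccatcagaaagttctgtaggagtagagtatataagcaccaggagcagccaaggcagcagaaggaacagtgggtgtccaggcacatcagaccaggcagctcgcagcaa

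The Ccl17 window held 1 match, TTCTCTGGAA, to the STAT6-type letters, a pattern found in 6.95% of the 32851 promoter windows. The Ccl22 window held 2 matches to the NF-kappaB-type letters, both read on the minus strand, and 50.8% of all windows hold this pattern. The Il12b window held none of the 3 patterns. Among the other windows, Fscn1 held 3 matches of the NF-kappaB type and Il4i1 (overlapping each other) and Cd80 held 2 each, and none of the 6 windows held the interferon pattern, which 3.44% of all windows hold. A match describes letters and is not shown to be a bound site, and a window without a match is not shown to lack one.

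The costimulatory members were shared more widely. Cd80 was at 162 ± 40.5 CPM in mature DC, 41.0 ± 6.87 CPM in cDC2, 24.5 ± 2.30 CPM in macrophages and 12.8 ± 5.52 CPM in cDC1, and this order held in 8 of 8 samples at each step. Cd40 was at 223 ± 74.7 CPM in mature DC, 73.3 ± 52.8 CPM in cDC2 and 53.3 ± 42.5 CPM in macrophages, again with the order kept in 8 of 8 samples. Cd86 differed least between gates, though mature DC were above cDC2 in 8 of 8 samples. It was at 298 ± 127 CPM in mature DC, 189.7 ± 49.3 CPM in cDC2, 180.0 ± 39.9 CPM in macrophages and 174 ± 30.6 CPM in cDC1, where the last 3 did not differ beyond their spread. It was detected in 56.9%, 53.6%, 54.5% and 54.5% of thinned cells of these gates. In pDC Cd86 was lower, at 32.6 ± 33.7 CPM (n = 4).

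**Figure D1:**
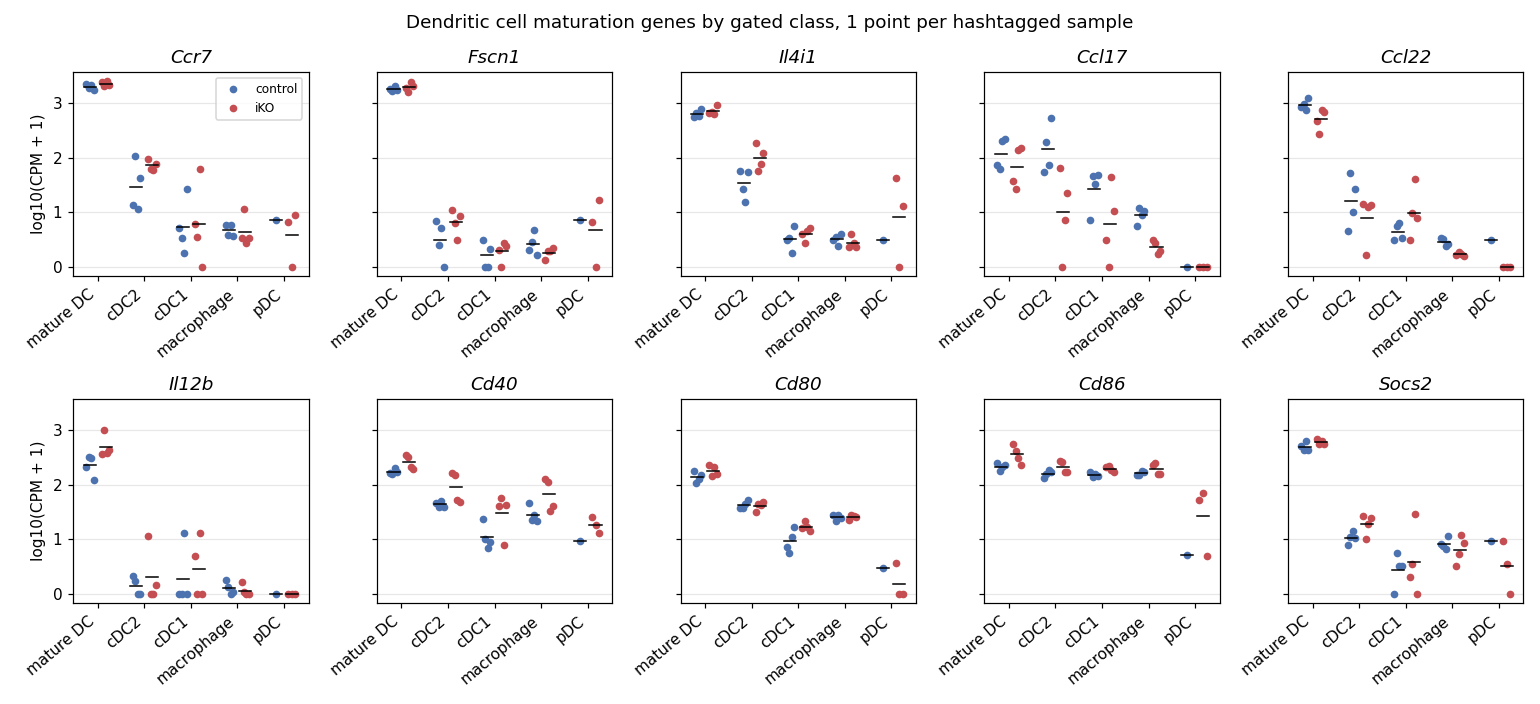
Level of each of the 10 genes, as log10(CPM + 1), in the 5 gates. Each point is 1 hashtagged sample with enough cells in the gate (blue control, red iKO) and each line the mean of the plotted values; pDC had enough cells in 1 control and 3 iKO samples. Mature DC were highest for 9 genes, Ccl17 was higher in cDC2 than in mature DC in 3 of 8 samples, and Cd86 was nearly level among cDC2, macrophages and cDC1.

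The genes were also found together in single cells. At 5000 UMIs per cell the median mature DC held a UMI of 6 of the 10 genes, and the median cDC2, cDC1 and macrophage held 1, while the median pDC and T cell held 0. At least 4 of the genes were detected in 96.6% of mature DC, 6.17% of cDC2, 0.893% of cDC1 and 0.231% of macrophages. The medians were 6 in iKO and 6 in control mature DC. Mature DC, which made up 1.95% of the kept cells, held 78.9% of all Fscn1 UMIs, 67.2% of Ccl22, 63.8% of Il12b, 54.8% of Ccr7, 53.2% of Il4i1 and 52.9% of Socs2, but 18.8% of Ccl17, 11.7% of Cd80, 11.6% of Cd40 and 4.72% of Cd86. Cells in no gate, 48.4% of the kept cells, held 19.4% of Fscn1, 27.8% of Ccl22, 34.5% of Il12b and 31.9% of Ccr7. They held 33.7% of Il4i1, 25.4% of Socs2, and 44.1% to 53.0% of Ccl17, Cd80, Cd40 and Cd86. By cluster, mature DC held 96.4% of Fscn1, 90.6% of Ccl22, 90.6% of Il12b and 76.0% of Ccr7. Il4i1 and Socs2 stood at 80.2% and 69.7% there, and Ccl17, Cd80, Cd40 and Cd86 at 32.0%, 16.2%, 16.6% and 6.74%.

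The study asked how an immune response set off by Trex1 loss bears on tumour growth, and the mature DC gate was compared between genotypes first. The migration genes overlapped between them: Ccr7 was at 2258 ± 226 CPM in iKO and 2011 ± 233 CPM in control, and Fscn1 at 1990 ± 376 CPM and 1784 ± 154 CPM (SD, n = 4 each). None of the 10 genes passed the threshold in this gate in edgeR's quasi-likelihood test (adjusted p under 0.05), where 0.184% of the 5981 genes tested passed in either direction. An unadjusted p under 0.05 was found for 6 of the 10, against 11.2% of all genes tested: Cd40, Cd86, Il12b, Cd80 and Socs2 with higher values in iKO, and Ccl22 with lower values. The median log2 fold change of the 10 genes was 0.26, beside -0.01 over all genes tested.

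Il12b was the one gene whose groups did not overlap in the mature DC gate, which 5.42% of all genes tested also showed. Its level was 362, 995, 374 and 439.6 CPM in iKO samples 1 to 4, and 215, 326, 309 and 119.9 CPM in control samples 1 to 4. Every iKO sample was above every control sample, with iKO sample 2 far above the rest. The log2 fold change was 1.20 ± 0.35 (SE), with an edgeR adjusted p of 0.225, so the difference did not pass. The share of mature DC with Il12b was close in both groups, 33.0% ± 6.23 in iKO and 29.4% ± 7.32 in control after thinning (SD, n = 4; exact permutation p = 0.486, adjusted 0.720 over 40 tests). The UMIs were held by few cells: 1 iKO cell held 235 of the 2099 Il12b UMIs of iKO mature DC, and 1 control cell 65 of 661. Without the low-count filter, where more genes were tested, Il12b passed (log2 fold change 1.22, edgeR adjusted p = 0.000135). In that setting, used again below, 246 of 15102 genes passed in this gate, against 11 of 5981 with the filter.

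Cd40 and Cd86 had their highest values in the same 2 iKO samples. Cd40 was at 353, 325, 213 and 197 CPM in iKO samples 1 to 4 and 162, 159.9, 200.2 and 171 CPM in control, where iKO sample 4 alone fell within the control range. Its log2 fold change was 0.67 ± 0.18 (SE; edgeR adjusted p = 0.168). Cd86 was at 554, 419, 310.1 and 231 CPM in iKO and 247, 179, 209 and 232 CPM in control, again with iKO samples 1 and 2 highest and iKO sample 4 inside the control range. Its log2 fold change was 0.82 ± 0.22 (SE; edgeR adjusted p = 0.168). Without iKO sample 4 both passed, with edgeR adjusted p of 0.0345 for Cd40 and 0.0170 for Cd86; without the low-count filter they were 0.0146 and 0.00165. Cd80 stood at 184 ± 39.4 CPM in iKO and 140.0 ± 31.7 CPM in control, with overlapping groups and an edgeR adjusted p of 0.431.

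The chemokines had lower values in iKO. Ccl22 was at 464, 266, 754 and 682 CPM in iKO samples 1 to 4 and 854, 953, 753 and 1229 CPM in control, so that iKO sample 3 and control sample 3 met and the other iKO samples lay below all control samples. Its log2 fold change was -0.77 ± 0.29 (SE; edgeR adjusted p = 0.335, and 0.0146 without the low-count filter). Ccl17 was at 35.9, 25.9, 134 and 150.3 CPM in iKO and 72.4, 60.2, 198 and 221 CPM in control. In both genotypes samples 1 and 2 were low and samples 3 and 4 high, and the groups overlapped (log2 fold change -0.67 ± 0.55, edgeR adjusted p = 0.715).

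**Figure D2:**
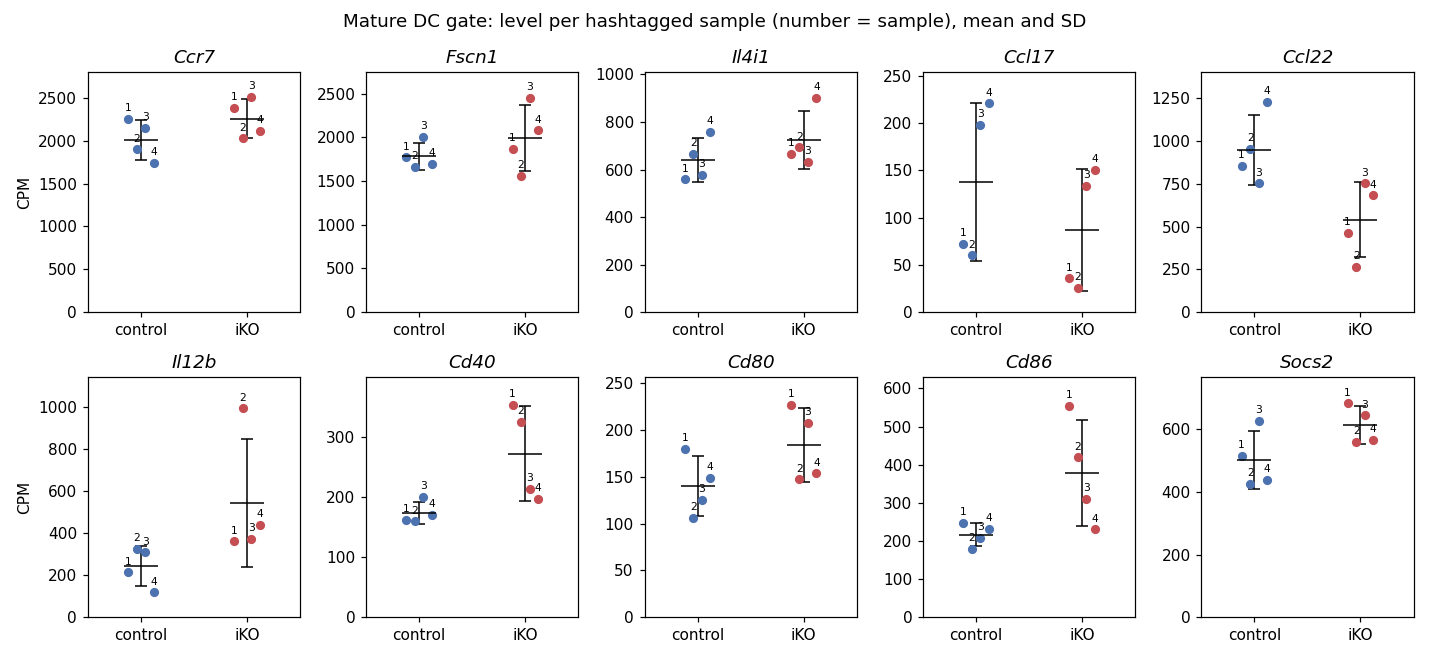
Level in CPM of the 10 genes in the mature DC gate, 1 point per hashtagged sample (the digit is the sample number), with mean and SD bars for 4 control and 4 iKO samples. The Il12b groups do not overlap, Cd40 and Cd86 are highest in iKO samples 1 and 2, and Ccl22 is lower in 3 of the 4 iKO samples than in any control sample.

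Counting cells rather than UMIs separated the groups for Ccl17 and Cd40 in mature DC. After thinning to 5000 UMIs, Ccl17 was detected in 6.0%, 7.55%, 10.3% and 11.7% of mature DC in iKO samples 1 to 4, and in 14.3%, 20.0%, 29.4% and 23.8% in control. Every iKO sample lay below every control sample (8.90% ± 2.59 against 21.9% ± 6.37, SD, n = 4; exact permutation p = 0.0286, adjusted 0.286). Cd40 was detected in 64.0%, 49.1%, 44.8% and 55.3% of mature DC in iKO and 32.1%, 30.0%, 41.2% and 33.3% in control. Here every iKO sample was above every control sample (53.3% ± 8.33 against 34.2% ± 4.87, SD, n = 4; exact permutation p = 0.0286, adjusted 0.286). With 4 samples against 4 this p cannot be smaller. The test was added after the shares had been seen, none of its 40 results passed after adjustment, and 4 had an unadjusted p under 0.05. The share of all genes whose groups separate by cells in this way was not computed. In thinned T cells, taken as a cell type that should lack both genes, Ccl17 was detected in 0.0445% of iKO and 0.624% of control cells and Cd40 in 0.935% and 1.19%, at unthinned median depths of 12864.5 and 6735 UMIs. Cells under 5000 UMIs, left out of these shares, were 3.83% of iKO and 6.19% of control mature DC. Among T cells they were 6.30% and 25.2%.

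The summed level of 6 neutrophil markers was lower in iKO in this gate, 81.4 ± 11.2 CPM against 233 ± 39.3 CPM (SD, n = 4, all 6 detected), with no overlap between groups. Macrophage markers in the same gate ranged from 143 to 1089.5 CPM in iKO and from 159.9 to 1610.0 CPM in control (11 of 11 detected). Monocyte markers (5 of 5 detected) were highest in iKO samples 1 and 2, the samples highest in Cd40 and Cd86, at 541 and 960 CPM against 153 to 478 CPM in the other 6 samples. The part of any of these in the differences above was not tested.

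In macrophages Ccl17 was the one gene that passed, and it was lower in iKO. Its level was 2.08, 1.71, 0.712 and 0.926 CPM in iKO samples 1 to 4 and 4.58, 11.05, 8.02 and 9.48 CPM in control, with no overlap between the groups. The log2 fold change was -2.54 ± 0.37 (SE; edgeR adjusted p = 0.0148, lower in 4 of 4 iKO samples). The low-count filter kept 7 of the 10 genes in this gate and left out Fscn1, Ccl22 and Il12b, and 3.67% of all 10473 genes tested were called in either direction (1.88% lower in iKO), while 13.9% had groups that did not overlap. An unadjusted p under 0.05 was found for 2 of the 7, Ccl17 and Cd40, against 21.9% of all genes tested.

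The Ccl17 difference in macrophages rested on few cells. It was carried by 51 UMIs in 12 of 1859 iKO cells and 188 UMIs in 27 of 1241 control cells, and the highest cell, in control sample 4, held 55 of them. With that cell left out, the log2 fold change was -2.25 ± 0.41 (SE) and the edgeR adjusted p 0.0277. The call was lost without control sample 2 (edgeR adjusted p = 0.0708), without control sample 4 (0.0648) and with clusters in place of gates (0.113), where the log2 fold change was -2.39, -2.44 and -3.37. It stayed between -3.37 and -2.25 under the 16 alternatives that could be fitted, and in thinned cells Ccl17 fell below the filter. After thinning it was detected in 0.366%, 0.154%, 0% and 0.237% of iKO macrophages (0 of 201 cells allows up to 1.49%) and 0.459%, 1.71%, 2.25% and 1.18% of control macrophages. Ccl17 was also lower in the T cell gate, at 0.210 ± 0.0761 CPM in iKO and 1.02 ± 0.513 CPM in control (n = 4, SD), where the groups did not overlap either. No test was run in the T cell gate, and the share of all genes without overlap was not computed there. Neutrophil markers in the macrophage gate summed to 119 ± 20.6 CPM in iKO and 295 ± 56.1 CPM in control (n = 4, SD), and their part in the difference was not tested.

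Other members in macrophages did not pass. Cd40 was at 129, 111, 32.5 and 39.2 CPM in iKO samples 1 to 4 and 44.6, 21.8, 27.2 and 20.3 CPM in control, so iKO samples 1 and 2 stood far above every other sample and iKO samples 3 and 4 lay within the control range. Its log2 fold change was 1.47 ± 0.49 (SE; edgeR adjusted p = 0.116), and without iKO sample 3 it passed (1.73, edgeR adjusted p = 0.0407). Cd86 showed the same pair, at 229, 253, 154 and 155 CPM in iKO and 148, 150.0, 179 and 172 CPM in control (log2 fold change 0.26 ± 0.20, edgeR adjusted p = 0.482). Macrophage markers were lower in the same samples, at 10068 and 9543 CPM in iKO samples 1 and 2 against 10829 to 14113 CPM in the others, and monocyte markers were 3825 and 3943 CPM against 2234 to 3374 CPM; their part in the Cd40 and Cd86 values was not tested. Cd80 was level, at 24.6 ± 2.21 CPM in iKO and 24.4 ± 2.73 CPM in control (n = 4, SD; log2 fold change -0.03 ± 0.12).

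In cDC2, 8 genes were tested (not Fscn1 and Il12b) and none passed, where 1.87% of 7697 genes did. An unadjusted p under 0.05 was found for 5, against 15.7% of all genes tested. Il4i1 was the one gene with no overlap, as were 9.11% of all genes tested: 185, 56.7, 75.6 and 120.3 CPM in iKO samples 1 to 4 and 55.4, 25.2, 14.4 and 54.1 CPM in control. The lowest iKO sample and the highest control sample were close, at 56.7 and 55.4 CPM (log2 fold change 1.57 ± 0.42, edgeR adjusted p = 0.0852). Il4i1 passed with the sample number as a block (1.54, edgeR adjusted p = 0.00287), in thinned cells (1.51, 0.0458) and without the low-count filter (1.57, 0.000434), and did not pass under the other 15 alternatives (1.07 to 1.86). Without the filter 399 of 15142 genes passed in this gate, against 144 of 7697 with it. Mature DC markers in this gate summed to 69.3 ± 18.5 CPM in iKO and 33.2 ± 5.99 CPM in control (n = 4, SD, 9 of 12 markers detected), with no overlap; their part in the Il4i1 values was not tested.

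Ccl17 had the widest spread of any member in cDC2. It was at 63.2, 0, 6.13 and 21.8 CPM in iKO samples 1 to 4 (0 UMIs in sample 2 allows up to 2.0 CPM) and 53.1, 193, 73.6 and 533 CPM in control. In iKO, samples 2, 3 and 4 lay below all control samples, and sample 1 lay above control sample 1 (log2 fold change -3.31 ± 0.86, edgeR adjusted p = 0.0800). A single cell of control sample 4 held 532 of the 1076 control UMIs, 49.4% of them, and without it the log2 fold change was -2.32 ± 0.69 (SE; edgeR adjusted p = 0.119). Ccl17 passed with clusters in place of gates (-2.94, edgeR adjusted p = 0.0311), in thinned cells (-3.44, 0.0132) and without the low-count filter (-3.32, 6.7e-05), and ranged from -4.34 to -2.31 over 18 alternatives. By cells, 12 of 274 iKO and 48 of 268 control cDC2 held Ccl17 before thinning. The cDC2 markers summed to 743, 804, 1698 and 1227 CPM in iKO samples 1 to 4 and 1482, 2050.5, 1569 and 2094 CPM in control, overlapping between the groups. Neutrophil markers (6 of 6 detected) summed to 76.6 to 148 CPM in iKO and 206 to 224 CPM in control, with no overlap. The part of either in the Ccl17 difference was not tested.

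Cd40 in cDC2 repeated the pattern of macrophages. It was at 164, 153, 51.1 and 47.4 CPM in iKO samples 1 to 4 and 45.0, 37.4, 50.2 and 39.0 CPM in control (log2 fold change 1.25 ± 0.37, edgeR adjusted p = 0.124). It passed with DESeq2 (1.27, adjusted p = 0.0240), without the low-count filter (edgeR adjusted p = 0.00260), without iKO sample 3 (1.47, 0.0479) and without iKO sample 4 (1.52, 0.0219). Cd86 was at 267, 264, 174 and 172 CPM in iKO and 132, 156, 184 and 170.3 CPM in control (log2 fold change 0.43 ± 0.17, edgeR adjusted p = 0.243). In both, iKO samples 1 and 2 were the highest of all 8, and in the same 2 samples the monocyte markers of the gate were highest, at 4473 and 3703 CPM against 1213 to 2387 CPM elsewhere; their part was not tested. Socs2 stood at 19.2 ± 7.25 CPM in iKO and 9.86 ± 2.51 CPM in control (n = 4, SD), and Cd80 at 40.2 ± 7.08 CPM and 41.8 ± 7.63 CPM.

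In cDC1 the genes could be compared only with at least 10 cells per sample, since the control samples held 17, 16, 48 and 28 of these cells. Only Ccl17, Cd40, Cd80 and Cd86 passed the filter there and none of these 4 passed the test, where 1.23% of 6366 genes did. An unadjusted p under 0.05 was found for 2, Cd40 and Cd86, against 14.2% of all genes tested. Cd86 had no overlap between groups, as did 7.21% of all genes tested, at 211, 221, 185 and 172 CPM in iKO samples 1 to 4 and 169, 135, 155 and 143 CPM in control (log2 fold change 0.39 ± 0.13, edgeR adjusted p = 0.180). Cd86 was also detected in a larger share of thinned iKO cDC1, 61.5% ± 6.62 against 48.2% ± 5.86 (SD, n = 4; exact permutation p = 0.0286, adjusted 0.286). Cd40 was at 39.5, 57.5, 7.03 and 41.9 CPM in iKO and 22.9, 9.31, 6.10 and 8.08 CPM in control, where iKO sample 3, with 19 cells, was the one iKO sample inside the control range (log2 fold change 1.91 ± 0.50, edgeR adjusted p = 0.0831). Cd40 passed with DESeq2 (1.77, adjusted p = 0.0425), without the low-count filter (edgeR adjusted p = 4.8e-07), without iKO sample 3 (2.18, 0.0190) and without control sample 1 (2.38, 0.0351). Ccl17 passed in cDC1 under 2 of 16 alternatives, without iKO sample 3 (-3.33, edgeR adjusted p = 0.0463) and without the filter (-1.60, 0.000395). Its log2 fold change ranged from -3.33 to -1.08 over the 16. In this gate 1 iKO cell held 18 of 33 Ccl17 UMIs and 1 control cell 29 of 104. Without the filter 390 of 14353 genes passed in this gate, against 78 of 6366 with it. Monocyte markers in this gate (5 of 5 detected) were at 2395 and 2618 CPM in iKO samples 1 and 2, the 2 samples highest in Cd86, against 461 to 937 CPM in the other 6. Neutrophil markers (6 of 6 detected) were at 58.1 to 87.9 CPM in iKO and 144 to 198 CPM in control, with no overlap. The part of either in the cDC1 values was not tested. No test was run in pDC, because 3 control samples fell below the required number of cells, with 5, 4, 45 and 3 cells in control samples 1 to 4, against 26, 28, 20 and 19 in iKO. In the 3 iKO samples with enough pDC, Cd86 was at 52.2, 69.9 and 3.99 CPM, and in the 1 such control sample at 4.10 CPM.

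Across the 4 tested gates the estimates for Ccl17 and Cd40 kept their signs. Ccl17 was negative in all of them, from -3.31 in cDC2 to -0.67 in mature DC, and Cd40 positive, from 0.67 in mature DC to 1.91 in cDC1. The gates share samples and libraries, so these are not independent results. Whether the genotype effect differed between macrophages and cDC2, or between macrophages and mature DC, was tested within samples for all 10 genes. None of the 20 exact permutation tests passed after adjustment (smallest adjusted p 0.286), and 1 had an unadjusted p under 0.05: the Cd86 effect in macrophages minus that in cDC2 was -0.18 on the log2(CPM + 1) scale (two-sided exact permutation p = 0.0286).

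**Figure D3:**
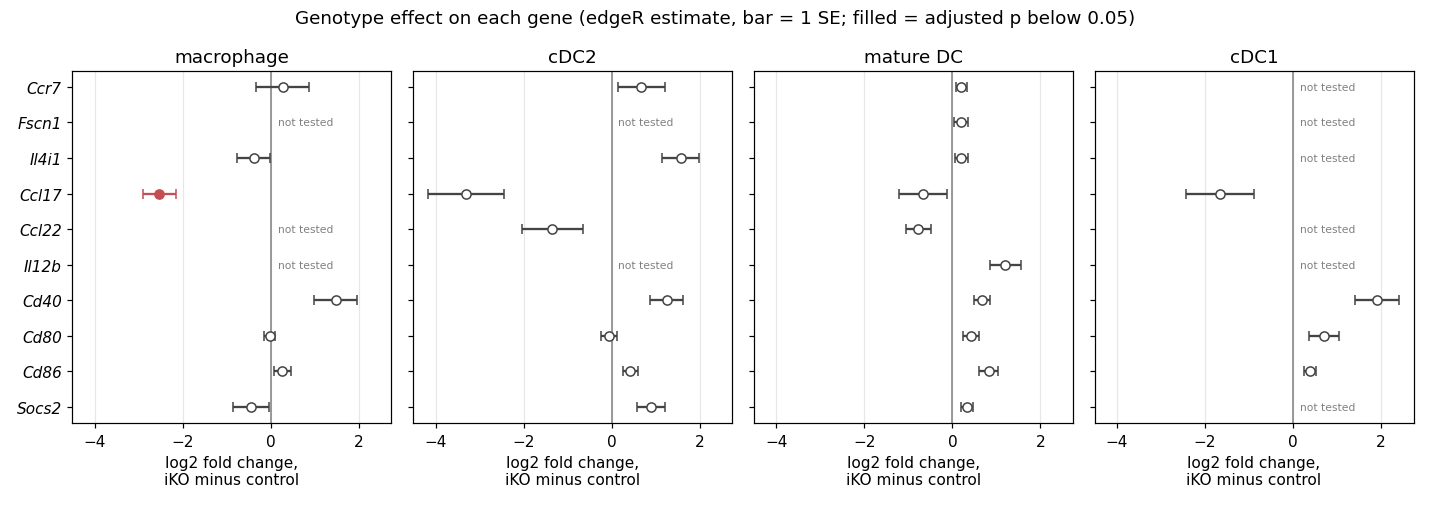
Log2 fold change of each gene between iKO and control in the 4 tested gates, as estimated by edgeR, with bars of 1 SE; the filled point passed an adjusted p of 0.05 and genes below the low-count filter are marked as not tested. Ccl17 lies left of 0 and Cd40 right of 0 in all 4 gates, and Ccl17 in macrophages is the one filled point.

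**Figure D4:**
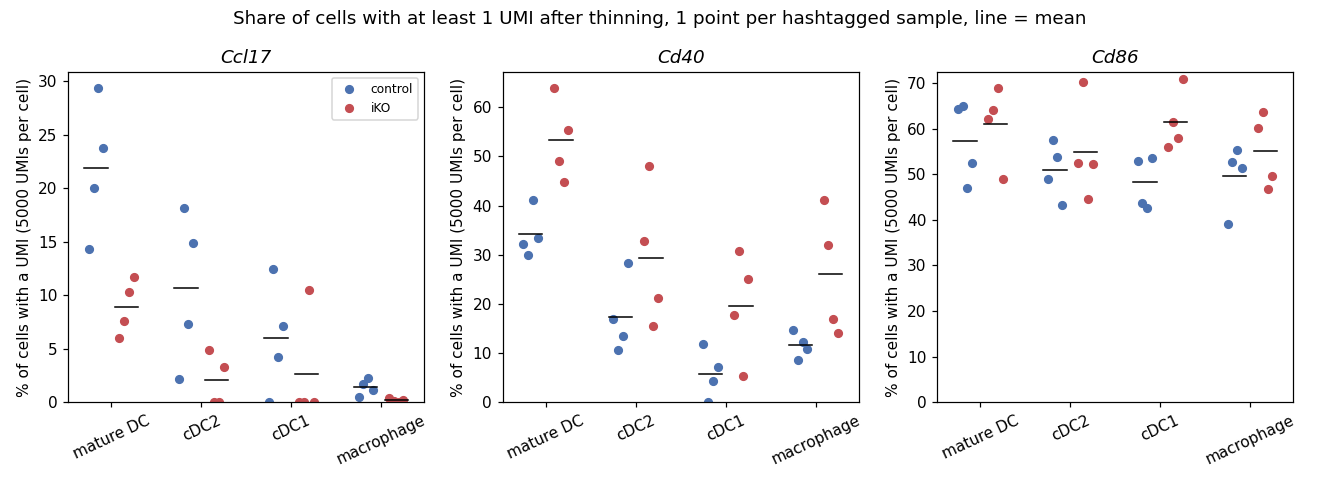
Share of cells with at least 1 UMI of Ccl17, Cd40 or Cd86 after thinning to 5000 UMIs per cell, 1 point per hashtagged sample (blue control, red iKO), with the mean as a line. The groups do not overlap for Ccl17 in mature DC and macrophages, for Cd40 in mature DC and for Cd86 in cDC1. They are among 40 pairs of gene and gate tested, and no share over all genes was computed for this measure.

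Other genes of the maturation programme were read from 7 lists that hold none of the 10, and those named here without passing the test were chosen after their values were seen. In mature DC, none of the tested list genes passed. Among genes of the NF-kappaB pathway, 13 of 13 were tested there and 5 had an unadjusted p under 0.05 (Relb, Nfkbia, Nfkbie and Traf1 with higher values in iKO, Nfkb1 with lower), beside 11.2% of all genes tested. Nfkbie, an inhibitor of the pathway, was at 123 ± 20.4 CPM in iKO and 80.4 ± 9.15 CPM in control (n = 4, SD; log2 fold change 0.62 ± 0.15, edgeR adjusted p = 0.155), while Nfkb1, which encodes the p105 precursor of p50, was at 248 ± 15.6 CPM and 329.6 ± 35.2 CPM (log2 fold change -0.39 ± 0.13, edgeR adjusted p = 0.270). Il6, an inflammatory cytokine, was at 48.9 ± 21.0 CPM in iKO mature DC and 11.2 ± 3.38 CPM in control, with no overlap (log2 fold change 1.99 ± 0.40, edgeR adjusted p = 0.0789).

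In cDC2, 2 list genes were called, both higher in iKO, beside 1.87% of all genes tested, of which 114 were higher and 30 lower. Marcksl1, which binds actin and membranes, rose from 52.1 ± 9.75 to 106 ± 11.5 CPM (SD, n = 4; log2 fold change 1.01 ± 0.14, edgeR adjusted p = 0.00803, higher in 4 of 4 samples), 1 of 6 tested migration genes. Cd274, which encodes the checkpoint ligand PD-L1, rose from 52.2 ± 9.52 to 112 ± 30.9 CPM (log2 fold change 1.06 ± 0.21, edgeR adjusted p = 0.0260, higher in 4 of 4 samples), 1 of 6 tested regulatory genes. Both stood far higher in mature DC of either genotype. Marcksl1 was at 778 ± 88.8 CPM in iKO and 647 ± 25.0 CPM in control, and Cd274 at 376 ± 66.6 CPM and 304 ± 62.3 CPM (SD, n = 4). Neither passed between genotypes in that gate (edgeR adjusted p = 0.366 and 0.415). The mature DC markers of the cDC2 gate were higher in iKO with no overlap, and its monocyte markers were highest in iKO samples 1 and 2, as given above; their part in either gene was not tested. In macrophages 2 list genes were called, beside 3.67% of all genes tested, of which 187 were higher and 197 lower. Marcks rose from 446 ± 30.1 to 635 ± 27.5 CPM (log2 fold change 0.47 ± 0.08, edgeR adjusted p = 0.0257), 1 of 6 migration genes. Cd48, a ligand of lymphocyte receptors, rose from 168 ± 13.9 to 223 ± 9.64 CPM (0.37 ± 0.08, edgeR adjusted p = 0.0457), 1 of 4 tested costimulation genes. List genes were not followed under the alternatives, where calls over all genes ranged from 25 to 919 in macrophages. No list gene was called lower in iKO in any of these 3 gates.

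Genes with a level most like the mean of the 10 were ranked over 33 profiles of class by sample, among 7358 genes with a mean of at least 10 CPM. The closest were Rel (Pearson r = 0.97), which encodes the NF-kappaB subunit c-Rel, then Emd, Tmem150c, H2-Eb2, Stat4, Aebp2, Vsig10, Swap70, Cdc42ep3 and Relb (r = 0.95). Tmem150c is one of the markers of the mature DC gate. Within the 10, Ccr7 and Il4i1 were most alike (r = 0.95) and Fscn1 and Cd86 least (r = 0.25). Cd40 was most like Gbp5, an interferon-induced GTPase (r = 0.94), followed by Tank and Adap1. Ccl17 had the weakest best match, Ext1 (r = 0.82), followed by Bhlhe40. Profiles of 1 sample share a library and those of 1 gate a cell type, so these values describe likeness and carry no test.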

How the data were processed

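Leukocytes from B16-F10 tumours were profiled with 10x Genomics 3' version 3 chemistry and TotalSeqA hashtags, per the labels' protocols. The deposited matrices hold raw UMI counts per gene and cell, made by the authors with Cell Ranger 7.1.0 on GRCm39, per the submitters' processing notes. The 10 genes and the gene lists were chosen with earlier results of these data known. Cells with at least 300 genes and at most 10% mitochondrial UMIs were kept, and 438 cells with a Scrublet score above 0.25 were removed as doublets (1.95%). No barcode was shared between samples of a pool, and 45 barcode strings occurred in both pools.

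Cells were gated by marker genes that exclude the 10. Gate limits were set after marker counts, not counts of the 10 genes, had been seen. Counts were summed per sample and gate, with at least 20 cells required (10 for cDC1, where 20 left too few control samples), and tested with edgeR 4.0.16 (TMM, filterByExpr, quasi-likelihood test, Benjamini-Hochberg over all tested genes, threshold 0.05) in R 4.3.3. The test was first tested on simulated data. Shares of cells used cells thinned to 5000 UMIs, with cells under that number left out, and intervals and limits cover counting error only. Alternatives were other size factors, DESeq2 1.42.0, no filter, clusters from scanpy 1.11.5, doublets kept, thinning, the sample number as a block, and leaving out each sample. Gated cells of the same cluster class only, leaving out the cell with most Ccl17, and the alternatives to the order of gates were chosen after seeing the data. Named from the 7 other lists are at most 4 called genes per list and gate, and by likeness the 10 genes closest to the mean of the members and up to 3 closest to a member, of which 1 is not reported here. Sample numbers did not pair the samples.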

Additional observations from a re-analysis of the deposited data

Results flagged for a closer look

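In 9 of 80 groups of 4 samples, 1 sample lay further from the other 3 than Dixon's 95% limit allows. The limit flags about 1 in 20 groups of normally distributed values. Many counts here were near 0 and the groups share samples, so that rate does not apply and no excess can be read. Il12b in mature DC of iKO sample 2 was at 995 CPM, with the other iKO samples at 362 to 439.6 CPM, so the highest value of the Il12b comparison came from 1 sample. Il12b was also high in iKO sample 1 in cDC2, at 10.7 CPM against 0 to 0.474 CPM, and in macrophages, at 0.624 CPM against 0 to 0.0857 CPM. In cDC1, Il12b was at 12.2 CPM in control sample 3 and 0 in the other control samples. Ccr7 stood apart in macrophages of iKO sample 2, at 10.5 CPM against 1.66 to 2.39 CPM, where 1 cell held 55 of the 122 UMIs. In cDC1 it did so in iKO sample 3, at 59.7 CPM against 0 to 5.07 CPM, and in control sample 4, at 25.4 CPM against 0.762 to 4.17 CPM. Socs2 was at 28.1 CPM in cDC1 of the same iKO sample 3, which held 19 cells, against 0 to 2.53 CPM. Ccl22 in cDC2 of iKO sample 2 was low, at 0.668 CPM against 11.2 to 13.4 CPM, from 1 UMI in 77 cells. Several of these flags rested mostly on 1 cell. In cDC1, 1 cell held all 22 Ccr7 UMIs of control sample 4, and 1 cell 14 of the 16 Il12b UMIs of control sample 3. In cDC1 of iKO sample 3, 1 cell held 22 of 34 Ccr7 UMIs and 1 cell 12 of 16 Socs2 UMIs. In iKO sample 1, 1 cDC2 cell held 11 of 12 Il12b UMIs, and the macrophage value came from 6 Il12b UMIs in 560 cells.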

How the results depend on the processing

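Of the 10 genes, the number called lower in iKO macrophages was 1, and it was 0 with clusters in place of gates, with thinned cells and with gated cells of the same cluster class only (the last 2 because Ccl17 fell below the filter), and 0 to 1 when each sample was left out. The number called higher there was 0, and 0 to 1 without 1 sample. Of all genes in macrophages, 197 of 10473 were lower as reported and 13 of 10782 with clusters. With thinned cells 202 of 8243 were lower, and with cells of the same cluster class 16 of 10085. Without iKO sample 3, where 1 of the 10 genes was called higher, 465 of 10996 genes were. In cDC2 the number called higher was 0, but 1 with DESeq2, 2 without the filter, 1 with thinned cells, 1 with the replicate block (Il4i1, log2 fold change 1.54, edgeR adjusted p = 0.00287) and 0 to 1 without 1 sample. The number called lower there was 0, but 1 (Ccl17) without the filter, with clusters and with thinned cells. Of all genes in cDC2, 177 of 7697 were higher with DESeq2 and 282 of 15142 without the filter. With thinned cells 131 of 4027 were higher, and with the block 176 of 7697. Without iKO sample 3 or 4, 181 of 7919 and 205 of 7915 were higher. Lower were 117 of 15142 without the filter, 87 of 8939 with clusters and 35 of 4027 with thinned cells. In mature DC 3 were called higher and 1 lower without the filter, and 0 to 2 higher without 1 sample; of all genes, 185 were then higher and 61 lower of 15102 without the filter, and 87 and 16 of 6215 without iKO sample 4. In cDC1, 1 was called higher with DESeq2, 1 higher and 1 lower without the filter, and 0 to 1 in each direction without 1 sample. Of all genes in that gate, 93 of 6366 were higher with DESeq2, and 279 were higher and 111 lower of 14353 without the filter. Without iKO sample 3, 65 were higher and 26 lower of 6852, and without control sample 1, 93 were higher of 6845. Beyond the filter, the cause was not tested. Sample numbers did not pair the samples (correlation of same-numbered samples -0.28 to 0.44 in macrophages, -0.064 to 0.23 in cDC2 and -0.32 to 0.37 in mature DC, where 3 of 4 were above 0.1).

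Signs reversed for Ccr7 in macrophages (-0.69 with clusters, -0.17 with the replicate block, -0.81 without iKO sample 2). Cd80 in macrophages turned to 0.0088 without the filter, 0.064 with clusters, 0.062 with thinned cells and 0.0048 with cells of the same cluster class. Cd80 in cDC2 turned to 0.072 with cells of the same cluster class. Leaving out each sample gave -0.81 to 0.50 for Ccr7 in macrophages, -0.10 to 0.018 for Cd80 in macrophages and -0.15 to 0.063 for Cd80 in cDC2. Ccl17 stayed negative, and Cd40 and Cd86 positive, in all 4 gates under every alternative in which they were tested. Over all genes, calls ranged from 25 to 919 in macrophages (384 as reported), 30 to 399 in cDC2 (144), 2 to 246 in mature DC (11) and 7 to 390 in cDC1 (78). The mature DC gate was highest for 9 of the 10 genes as reported and for 9 to 10 under the alternatives run, with 10 in thinned cells, with clusters, without the cell with most Ccl17 and without control sample 2 or 4. Control cDC1 and pDC samples held few cells, and the test of pDC and its alternatives were not run.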
